A study of Homo sapiens with 8 samples.

Results

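AGAP1 is a long gene on the plus strand of chromosome 2, from 236402733 to 237040444 in the hg19 build, a span of 638 kb. The RBM45 CLIP peaks considered here are those that overlap this interval on the plus strand in the authors' peak lists. They number 448 of 210878 entries in the list of wild-type (WT) replicate 1, 162 of 65587 in that of replicate 2, and 54 of the 13758 pairs in the deposited list of peaks shared by both. An entry is 1 peak on 1 strand, with repeated rows collapsed. The gene was chosen by the number of shared peaks in a window over its 5′ end, one of the densest in these lists. Its peak numbers, their crowding, their lean to the 5′ end and the overlap between the replicates are therefore descriptions and carry no test.

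The libraries came from HEK293T cells, a human embryonic kidney line, that were WT and carried a lentivirus for human RBM45 with a FLAG-HA tag. Cells received ultraviolet light (300 mJ/cm2, 254 nm), which links protein to RNA, and an antibody to HA recovered the tagged protein. Both CLIP libraries thus report the lentiviral, tagged protein and not the endogenous one. Of the 8 libraries in the series, which also include size-matched inputs and a METTL3 knockout, only the peak lists of the 2 WT CLIP libraries were analysed here. The depth behind each list is unknown. Without input values, binding and the amount of AGAP1 RNA present at a position cannot be told apart. Nothing in the labels says whether the replicates were separate cultures, so the spread between them may be technical.

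RBM45 is an RNA-binding protein with several RNA recognition motifs that is mostly nuclear and has been found in protein inclusions of motor neuron disease. AGAP1 encodes a GTPase-activating protein for small GTPases of the ARF family, which control the budding of transport vesicles. The protein carries a GTPase-like domain, a pleckstrin homology domain, an ARF GAP domain and ankyrin repeats, and it acts with the AP-3 adaptor complex in endosomal sorting. Like many genes of neural function, AGAP1 spreads a modest length of exons over very long introns. In cross-linking experiments a peak inside an intron comes from unspliced or excised RNA, while a peak in an exon can come from either the precursor or the mature messenger.

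In GENCODE release 29, which uses the GRCh38 build, AGAP1 also spans 637712 bases and has 14 transcripts, 10 of them protein-coding. All exons of all transcripts together cover 13.9 kb, or 2.18% of the gene. The full-length transcript AGAP1-201 has 18 exons with 10832 bases of exon, and its first intron is 214 kb long. No position was carried from that build to hg19, so single peaks were not assigned to exons, introns or untranslated regions, and the lengths only give the scale of the gene. The replicate 1 peaks cover 21.4 kb of AGAP1, more than the exons of all its GENCODE transcripts combined, and the replicate 2 peaks cover 6.47 kb. The smaller genes that GENCODE places within AGAP1, among them the sense intronic AGAP1-IT1 and the antisense AC064874.1, were not separated from it.

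AGAP1 peaks lay mainly toward the 5′ end in both replicates. The gene was divided into 10 equal segments of 63.8 kb, numbered from the 5′ end. Segment 1 held 107 peaks in replicate 1 and 63 in replicate 2, which is 23.9% and 38.9% of the AGAP1 peaks of each list (mean 31.4% ± 10.6, SD, n = 2). An even spread would put 10% there, but the gene was chosen for a dense window at its 5′ end, which favours a larger share. Segment 10 held 28 peaks in replicate 1 and 4 in replicate 2. Expressed as density, replicate 1 went from 16.8 peaks per 10 kb in segment 1 to 4.39 in segment 10, and replicate 2 from 9.88 to 0.627. Both lists therefore thinned out along the gene, and replicate 2 as listed did so more steeply. The lists differ in length. With replicate 1 reduced to its strongest entries, as many as replicate 2 holds, segment 1 held 32.8% of its AGAP1 peaks.

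In replicate 1 the thinning was steady over the 5′ part and uneven after it. There the segments held 107, 84, 58, 39, 27, 24, 16, 43, 22 and 28 peaks in order from the 5′ end. The fall thus ran without a break to segment 7, and segment 8, from 446 to 510 kb, rose again to 43. In replicate 2 the segments held 63, 34, 13, 11, 12, 8, 2, 6, 9 and 4 peaks. Segment 8 held only 6 peaks in that list, so the local excess of replicate 1 around 460 to 510 kb had no like-sized counterpart. The deposited pairs numbered 29 and 16 in segments 1 and 2, then 3, 3, 2, 0, 0, 1, 0 and 0.

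**Figure D1:**
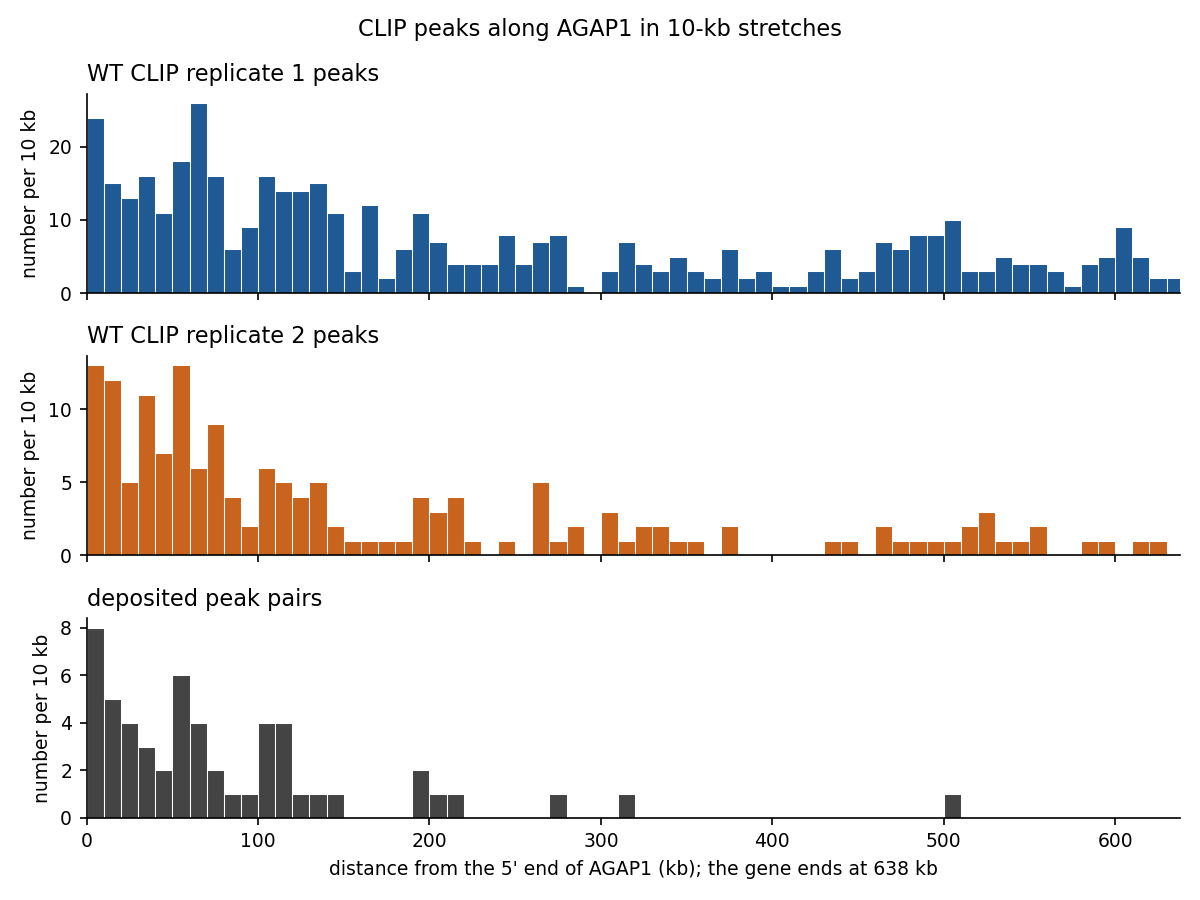
Number of peaks in each 10-kb stretch (vertical axes) against distance from the 5′ end of AGAP1 in kb (horizontal axis), for the replicate 1 list, the replicate 2 list and the deposited pairs, on separate vertical scales. Counts are highest in the first 80 kb in all 3 panels, replicate 1 rises again to 10 peaks in the stretch that begins at 500 kb, and a single pair lies beyond 320 kb.

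The middle peak, counted from the 5′ end, stood 150 kb into the gene in replicate 1 and 93.2 kb in replicate 2 (mean 122 kb ± 40.2, SD, n = 2), or 23.5% and 14.6% of the gene's length. For the deposited pairs it stood at 58.8 kb. All 3 distances are shorter than the 214-kb first intron that GENCODE gives AGAP1-201, which compares lengths only and places no peak in that intron. Exons of other transcripts lie within it, and the longest exon-free stretch of the gene is 145 kb. The 5′ 50% of the gene held 315 of 448 replicate 1 peaks, 133 of 162 replicate 2 peaks and 53 of 54 pairs. The first quartile of the pairs' distances was 22.5 kb and 90% lay within 193 kb. The only pair of the 3′ 50% was at 510 kb, at 4.42-fold in replicate 1 and 6.10-fold in replicate 2.

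**Figure D2:**
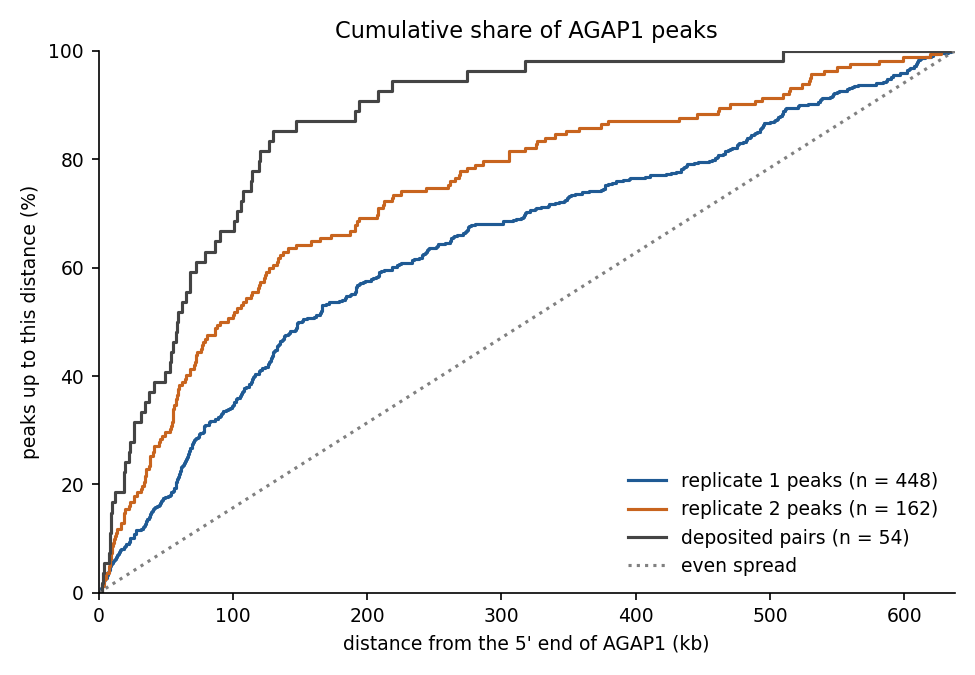
Cumulative percentage of AGAP1 peaks (vertical axis) against distance from the 5′ end in kb (horizontal axis), for the replicate 1 list (n = 448), the replicate 2 list (n = 162) and the deposited pairs (n = 54), with a dotted line for an even spread. All 3 curves lie above the dotted line, with medians at 150 kb, 93.2 kb and 58.8 kb.

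On the scale of 10 kb, the densest stretch of replicate 1 was 236462733 to 236472732, 60 to 70 kb from the start, with 26 peaks, of which 4 were in deposited pairs. Replicate 2 had 6 peaks there. The densest stretches of replicate 2 were the first, 236402733 to 236412732, and the sixth, 236452733 to 236462732, with 13 peaks each, where replicate 1 had 24 and 18. Summed over both lists the first stretch was the densest, with 37 peaks and 8 pairs, also the highest number of pairs. Over the 63 full stretches the 2 lists' counts gave a Pearson r of 0.78 and a Spearman rho of 0.67, and over the first 20 stretches 0.70 and 0.83. Over the 43 stretches after those the values were 0.23 and 0.31, with 13 stretches empty in replicate 2 and median counts of 4 and 1. These correlations describe stretches of 1 gene in 1 pair of libraries, which share the gene's RNA and the slope from 5′ to 3′.

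Neighbouring peaks were close together. Adjacent peaks were separated by a median gap of 640 bases in replicate 1 and of 1565 bases in replicate 2, and 62.6% and 43.5% of gaps were under 1 kb. The longest stretch without a peak was 20.4 kb in replicate 1, from 281 to 301 kb, and 53.4 kb in replicate 2, from 379 to 432 kb. These longest gaps do not coincide, and both lie in the sparse middle part of the gene. A replicate 2 peak had its nearest replicate 1 peak a median of 105 bases away, midpoint to midpoint, with a median of 23.0 bases in segment 1 and 249 bases in the rest. Nearest distances shorten wherever the other list is dense, so they follow the crowding as well as the positions.

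The replicates placed 70 AGAP1 peaks at overlapping bases, where overlap means that same-strand peaks share 1 base or more. That is 43.2% of the replicate 2 peaks (95% exact binomial interval 35.5 to 51.2) and 15.6% of the replicate 1 peaks (12.4 to 19.3). The corresponding shares of the whole lists were 28.8% and 8.88%. The intervals hold only counting error and take each peak as a separate draw, which neighbours in 1 library are not. Since the gene was chosen for its shared peaks, nothing is read from the distance between these shares.

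Overlap was concentrated where peaks were dense. In segment 1, 38 of 63 replicate 2 peaks overlapped replicate 1, or 60.3% (47.2 to 72.4), and in segment 2 18 of 34, or 52.9% (35.1 to 70.2). From segment 3 to segment 10 the overlapping peaks numbered 5 of 13, 3 of 11, 2 of 12, 1 of 8, 0 of 2, 3 of 6, 0 of 9 and 0 of 4. Seen from replicate 1, the share was 35.5% in segment 1 (26.5 to 45.4) and 6.98% in segment 8 (1.46 to 19.1), which has the local excess at 446 to 510 kb. In segments 9 and 10 together 0 of 50 replicate 1 peaks (0 to 7.11) and 0 of 13 replicate 2 peaks (0 to 24.7) overlapped. The whole-list shares were 8.88% and 28.8%. Peaks with a partner were mostly 5′ peaks, which the choice of the gene by shared peaks at its 5′ end favours. In segments 9 and 10 the lists had no listed position in common, but replicate 2 had few peaks there. The median width of replicate 1 peaks was 30.5 bases in both segments, against 38 over AGAP1. In replicate 2 it was 30 and 34 bases, against 32. A position listed in 1 replicate only may have been missed in the other.

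AGAP1 peaks were of moderate strength. Fold enrichment is the ratio of a peak over the caller's background and is the authors' value. The median over AGAP1 was 3.77 in replicate 1, with quartiles of 3.06 and 4.56, and 3.96 in replicate 2, with quartiles of 3.42 and 4.77, against 3.12 and 3.81 over the whole lists. Peaks above 5-fold numbered 73, or 16.3%, in replicate 1 and 34, or 21.0%, in replicate 2, where the whole lists had 9.16% and 18.0%. No AGAP1 peak exceeded 10.3-fold in replicate 1 or 9.89-fold in replicate 2, while the lists reach 192.3 and 57.7. The median width was 38 bases in replicate 1 and 32 in replicate 2, against 30 and 31 over the lists, and the shortest width, 30 bases, was held by 29.7% and 40.1% of AGAP1 peaks, against 51.6% and 47.9%. Single AGAP1 peaks were thus a little wider and stronger than the list medians, and their folds stayed far below the highest of either list.

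Peak strength also varied along the gene. In replicate 1 the median −log10 p was 5.66 in segment 1, 5.09 in segment 2 and 3.70 in both segment 4 and segment 5. It was 4.65 in segment 8, where peak number rose again, and lowest in segment 9, at 3.68. In replicate 2 it was 4.99 in segments 1 and 2, 4.86 in segment 3 and 3.23 in segment 4, its lowest, and later segments lay between 3.61 and 4.64. Median fold showed no steady course. In replicate 1 it was 3.92 in segment 1, 3.31 in segments 4 and 5, 3.85 in segment 8, 3.12 in segment 9, its lowest, and 3.59 in segment 10. In replicate 2 it was 4.23 in segment 1, 4.41 in segment 3, 3.48 in segment 4, 4.35 in segment 7, which holds 2 peaks, and 3.96 in segment 10. Ranking the AGAP1 peaks of replicate 1 by −log10 p, 44 of the strongest 112 lay in segment 1, against 20 of the weakest 112. In replicate 2, 20 of the strongest 41 and 8 of the weakest 41 lay there. The strongest 25% stood at a median of 79.0 kb in replicate 1 and 65.2 kb in replicate 2, and the weakest 25% at 203 and 208 kb.

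**Figure D3:**
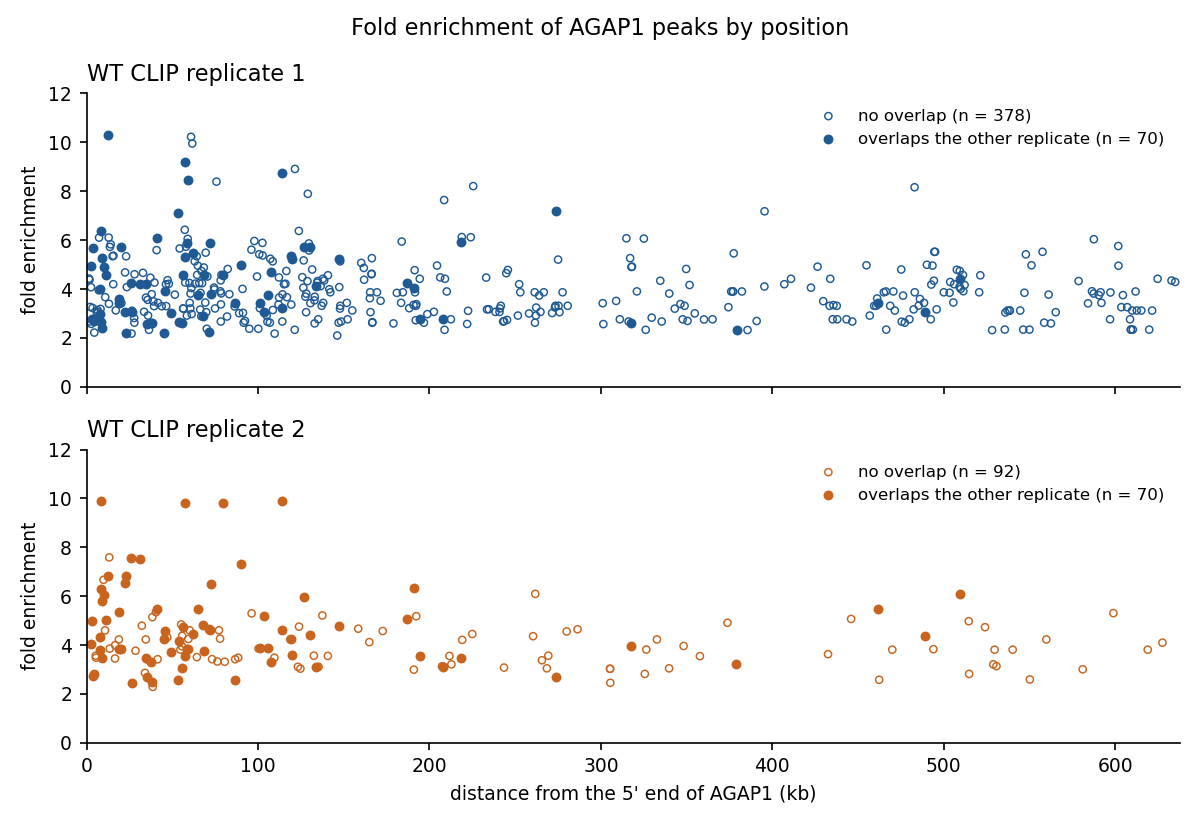
Fold enrichment of each AGAP1 peak (vertical axes) against distance from the 5′ end in kb (horizontal axis), replicate 1 above and replicate 2 below, with filled points for peaks that overlap the other replicate (n = 70 in each) and open points for the others (n = 378 and n = 92). Filled points gather in the first 130 kb, and 0 of them lie in segments 9 and 10.

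Strength and overlap went together inside the gene. In replicate 2, 25 of the strongest 41 peaks overlapped replicate 1, or 61.0% (44.5 to 75.8), against 12 of the weakest 41, or 29.3% (16.1 to 45.5). In replicate 1, 33 of the strongest 112 peaks overlapped, or 29.5% (21.2 to 38.8), while the next 3 groups of 112, in order of falling −log10 p, gave 12, 11 and 14. Overlapping peaks had a median width of 46 bases in replicate 1 and 35 in replicate 2, against 37.5 and 30 for the others. A rule of 1 shared base favours wide peaks, and the strongest peaks also lay nearer the 5′ end, so width, strength and position cannot be told apart here.

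The strongest AGAP1 peak of replicate 1, by the caller's −log10 p, lay at 236415206 to 236415244, 12.5 kb into the gene. It had 10.3-fold enrichment and a −log10 p of 23.1, rank 678 in the whole list, and its replicate 2 partner, displaced by 1 base, had 6.84-fold. The strongest of replicate 2 lay at 236411222 to 236411255, 8.51 kb into the gene, with 9.89-fold in replicate 2 (rank 470) and 6.36-fold in its replicate 1 partner. The peak at 236516741 to 236516808, 114 kb from the start, was among the 5 strongest of both lists. It had 8.74-fold in replicate 1 and 9.88-fold in replicate 2, and it ranked first among the 54 deposited AGAP1 pairs by the lower of the pair's folds. An overlap 57.4 kb into the gene, which the deposited list leaves out, had a higher lower fold, with 9.18-fold in replicate 1 and 9.83-fold in replicate 2, and it was singled out after its values were seen.

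Of the other strong peaks, some overlapped the other list and some did not. In replicate 1 the peaks at 236463595 to 236463664 (10.2-fold), 236464327 to 236464374 (9.95-fold) and 236524210 to 236524317 (8.91-fold) had no overlapping replicate 2 peak, and the nearest replicate 2 midpoints were 842, 215 and 1577 bases away. The first of these lies 61 kb into the gene, in the 10-kb stretch where replicate 1 was densest. In replicate 2 the peaks at 236460122 to 236460151 and 236482067 to 236482117, both 9.83-fold, overlapped replicate 1 peaks of 9.18-fold and 4.58-fold. The remaining one of the 5 strongest, 236415868 to 236415924 (7.59-fold), had no overlap, with the nearest replicate 1 midpoint 162 bases away. All 10 of these entries lay within 122 kb of the 5′ end.

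The widest replicate 1 peak, 184 bases at 236611190 to 236611373, lay 209 kb into the gene with 7.64-fold and no overlap. The widest of replicate 2, 101 bases at 236439980 to 236440080, had 3.32-fold and overlapped a replicate 1 peak of 2.62-fold. The first AGAP1 peak of replicate 1 began 1.34 kb after the annotated start, at 236404078 (4.43-fold). The first of replicate 2 began 2.71 kb after it, at 236405445 (4.06-fold), and overlapped a replicate 1 peak of 4.95-fold. The last peaks were 237037770 to 237037800 in replicate 1 (4.29-fold) and 237030323 to 237030354 in replicate 2 (4.10-fold), and neither had a partner.

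The deposited list holds 54 of the 70 overlaps, namely those that cover at least 50% of the replicate 1 peak. They join 54 different peaks of each list, so 12.1% of the AGAP1 peaks of replicate 1 and 33.3% of those of replicate 2 were in a deposited pair, against 6.52% and 20.9% of the whole lists. The midpoints of a pair differed by a median of 4.5 bases, and by 10 bases or less in 41 of 54 pairs. The median fold was 4.20 in replicate 1 (range 2.22 to 10.3) and 4.27 in replicate 2 (2.44 to 9.89), close to the 4.11 and 4.23 of all deposited pairs. The replicate 2 value was the higher in 34 pairs and the replicate 1 value in 20. Folds lay within a factor of 2 in 47 pairs, or 87.0%, against 90.5% of all pairs. The SD of the log2 fold ratio was 0.65, against 0.61 for all pairs. Across the 54 pairs the Spearman rho of fold was 0.18, against 0.32 over all deposited pairs. The value of 0.18 describes pairs that share 1 gene and a narrow range of folds. The rule of 50% overlap itself keeps paired midpoints close, while it sets nothing about the folds, whose order differed between the replicates.

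**Figure D4:**
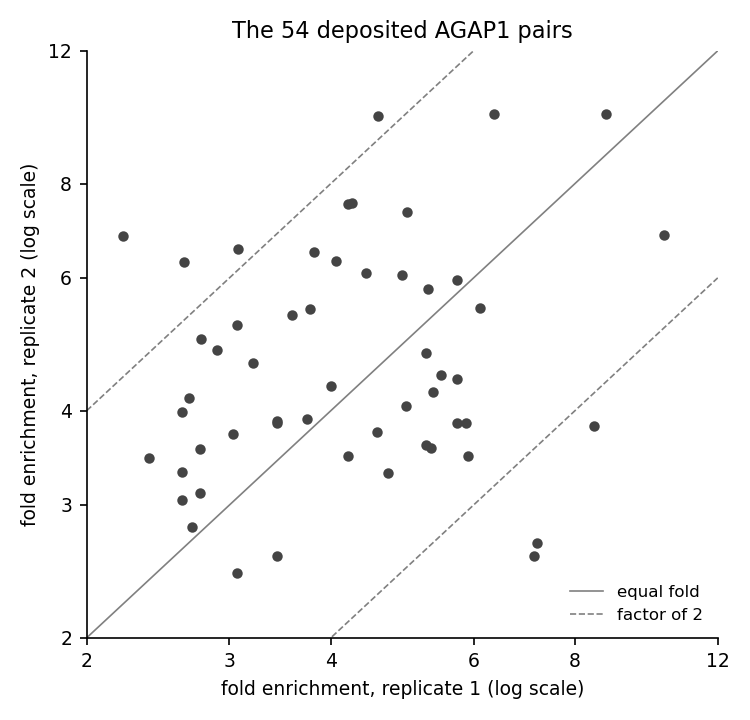
Fold enrichment in replicate 2 (vertical axis, log scale) against replicate 1 (horizontal axis, log scale) for the 54 deposited AGAP1 pairs, with a solid line for equal folds and dashed lines for a factor of 2. Of the points, 47 lie between the dashed lines, and the pair at 8.74-fold and 9.88-fold is at the upper right.

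Both peaks exceeded 5-fold in 6 of the 54 pairs, or 11.1%, against 13.9% of all deposited pairs. Besides the 3 pairs at 114 kb, 12.5 kb and 8.50 kb, the highest by the lower fold were 236529675 to 236529708 in replicate 1, at 127 kb, with 5.72-fold and 5.96-fold, and 236443646 to 236443680, at 40.9 kb, with 6.10-fold and 5.47-fold. These 5 pairs had 31 to 44 bases in common, and all lay in segments 1 and 2, as did 45 of the 54 pairs.

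Beside the rest of the lists, the 5′ end of AGAP1 was crowded and the remainder less so. On a fixed grid of 100-kb windows, counted on each strand, the window with the AGAP1 start, 236400001 to 236500000, held 152 replicate 1 peaks, 82 replicate 2 peaks and 36 pairs. It ranked 2 in each of the 3 counts, level with 1 other window in replicate 1, among 20452, 12713 and 5259 windows with at least 1 peak or pair, whose medians were 6, 3 and 1. The next window had 105, 30 and 13. The 4 windows after that held 38 to 48 replicate 1 peaks, 7 to 17 replicate 2 peaks and 0 to 3 pairs. These replicate 1 counts were still reached by only 2.40% to 4.35% of windows with a peak, whereas the replicate 2 counts were reached by 5.68% to 23.6%. The seventh window, in which the gene ends, had 18 and 3 peaks and no pair.

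**Figure D5:**
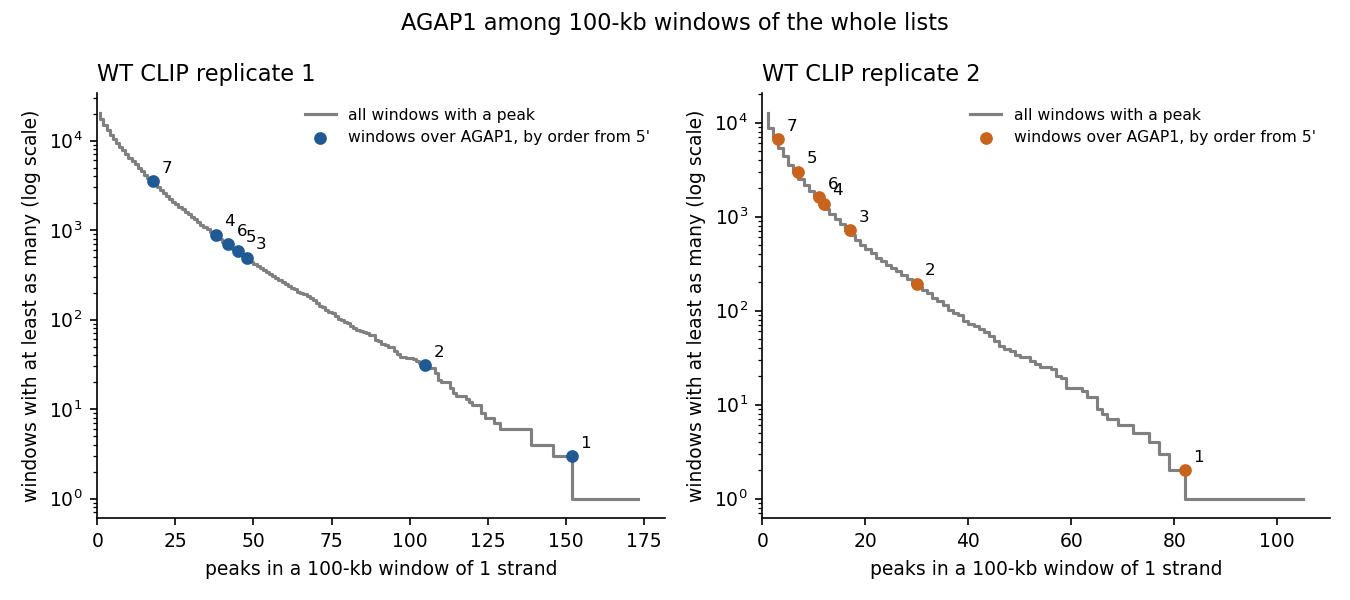
Number of 100-kb windows of 1 strand with at least as many peaks (vertical axis, log scale) against the number of peaks in a window (horizontal axis), for the whole replicate 1 and replicate 2 lists as grey lines, with the 7 windows over AGAP1 as points numbered from the 5′ end. Window 1 is near the right end in both panels (152 and 82 peaks), and window 7 has 18 and 3 peaks.

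The 3 windows elsewhere with the most pairs were those at chromosome 16 from 89400001, minus strand (43 pairs), chromosome 1 from 21400001, minus strand (33), and chromosome 19 from 34800001, plus strand (33). In the first AGAP1 window 47 of 82 replicate 2 peaks overlapped replicate 1, or 57.3% (45.9 to 68.2). The share was 61.9% (51.9 to 71.2), 53.3% (41.4 to 65.0) and 72.2% (58.4 to 83.5) in those 3 windows. All 4 windows were picked for their many pairs, which are themselves overlaps. High shares follow in part from that choice, and the whole replicate 2 list had 28.8%. The intervals take each peak as a separate draw, and differences between the windows were not tested. Median folds in the AGAP1 window, 3.87 in replicate 1 and 4.23 in replicate 2, lay beside 3.59 to 3.84 and 3.81 to 4.18 in the others.

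Several features of the lists bear on how the strand and the edges of AGAP1 can be read. Neither list holds a minus-strand entry in the AGAP1 interval, so antisense background could not be set beside the plus-strand peaks. The peak names carry running numbers that rise along each chromosome. In AGAP1 they run from 151851 to 152298 in replicate 1 and from 43080 to 43241 in replicate 2, with 0 numbers skipped. Over the whole lists 25.6% and 15.2% of the numbers up to the highest are absent. Before the first AGAP1 peak, replicate 1 lists nothing for 448 kb and skips 12 numbers. After the last one it lists nothing for 67.0 kb and skips 26, and the next entry is on the minus strand. Replicate 2 lists nothing for 441 kb before the gene with 0 numbers skipped, and nothing for 80.6 kb after it with 8 skipped.

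The number of times a peak is repeated in the lists also changed inside the gene. Every peak up to 355 kb in replicate 1 and 358 kb in replicate 2 stands in 3 identical rows, 330 and 139 peaks respectively. Each one from 360 kb in replicate 1 and 374 kb in replicate 2 stands in 2 rows, 118 and 23 peaks. In GENCODE the transcript AGAP1-204, which shares the 5′ end of the gene, spans 359 kb, and AGAP1-213 ends at 359 kb too. Other GENCODE transcripts end where the row number did not change, such as AGAP1-203 at 251 kb and AGAP1-208 at 543 kb. The sources used here do not say whether the strand and the repeats were taken from a gene annotation. If they were, the lists would hold only peaks in annotated genes, and the strand of a peak would be that of the gene and not of the RNA. Same-strand overlap and the absence of minus-strand entries could then reflect the annotation, and this was not tested. In the empty flanks, replicate 1 skips 12 numbers before the gene and 26 after it, and replicate 2 skips 0 and 8. No numbered replicate 2 peak is thus missing from the list before the gene. Before 358 kb the density was 9.22 peaks per 10 kb in replicate 1 and 3.89 in replicate 2, and after it 4.22 and 0.822, with 53 pairs before and 1 after.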

How the data were processed

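RBM45 CLIP peak lists of 2 WT replicates were analysed, out of 8 samples in 4 groups. Per the submitters' processing notes the build was hg19, and tools included the aligner Novoalign 3.09.00 and the peak caller MACS2 2.1.1.20160309, listed with no role. Each peak name holds the caller, its library and the p threshold, 0.005, which shows that the authors called peaks per library. The sources used here do not name the control library. The deposited lists give each peak's score (about 10 times the −log10 p), a fold enrichment (ratio over the caller's background) and an unadjusted −log10 p. They are properties of 1 peak each and served to describe or rank peaks within a list. The p threshold keeps weak peaks, which enter every share of overlaps. The deposited shared list stands under the record of WT input replicate 1, and its peak names show both CLIP lists.

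The 8 columns of the count table match no sample label and were not used, so the planned edgeR test of CLIP against input was not run, and depth per sample is unknown. A peak belonged to AGAP1 if it shared a base with the interval on the plus strand, and was placed by its midpoint. Positions count from 1. Overlap was computed on the whole lists between same-strand peaks with 1 base or more in common. Shares carry 95% exact Clopper-Pearson intervals. Peaks were named by rule: per list the 5 highest by −log10 p, the widest, the first and the last, the densest 10-kb stretch, the 5 pairs with the highest lower fold, and the 3 densest windows outside. The gene and these rules were chosen with earlier results of these data known. ARF GAP relatives were not analysed here, since they need an hg19 annotation, and no peak sequence was used here. Overlap and bin counts were tested on simulated lists with planted overlaps, also against bedtools 2.31.1. Counting used pandas 2.3.3 in Python 3.11.15, intervals scipy 1.17.1 and plots matplotlib 3.10.9. Alternatives were other overlap rules, the stronger 50% of either list, replicate 1 reduced by −log10 p to as many entries as replicate 2, covered bases, placement by the start, repeated rows and single replicates.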

Additional observations from a re-analysis of the deposited data

How the results depend on the processing

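Of 25 recomputed values, 7 moved and 12 stayed within the replicate spread, the interval or 1.5 times the main count. The other 6 could not move: with 2 replicates either one lies within 1 SD of their mean, and ignoring strand changes nothing where no minus-strand entry lies. The share of replicate 2 AGAP1 peaks overlapping replicate 1, 43.2%, was 31.5% with at least 50% of both peaks shared, 33.3% with 50% of the replicate 1 peak and 27.2% with the longer list reduced, where the whole lists gave 19.6%, 20.9% and 18.6%. From replicate 1 the share, 15.6%, was 11.4%, 12.1% and 21.9% under the same settings, against 6.09%, 6.52% and 18.3% of the whole list. With the longer list reduced, the replicate 1 share was near that of the whole list, which its interval (16.4 to 28.3) contains. The replicate 2 share had an interval of 20.5 to 34.7, which does not contain the 18.6% of that whole list. Since the gene was chosen for its shared peaks, nothing is read from either distance. Fewer pairs qualify under the stricter rules, and the reduced list holds 201 AGAP1 peaks. The 54 deposited pairs fell to 6 with both peaks above 5-fold, and numbered 51 with 50% of both peaks shared and 70 with any shared base, a setting added after seeing the data. The share in segment 1 of 10 along the gene ranged from 23.9% to 38.9% and the median position from 93.2 to 150 kb with either replicate left out. With the longer list reduced, segment 1 held 32.8% of replicate 1 peaks, still below the 38.9% of replicate 2. The ratio of plus-strand to minus-strand peaks could not be formed, since no minus-strand entry lies in the interval under any setting, and the overlap shares need both replicates. No paired analysis was possible because no count column matches a sample label. Depth is unknown, so a position listed in 1 replicate only may have been missed in the other.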
